A study of Homo sapiens with 6 samples.

Results

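The genes of respiratory chain complexes I to V were followed through induction of the fusion protein PLZF-RARA. Members were taken by symbol from the array annotation: every gene named by a probe set with a single symbol beginning with NDUF, UQCR, ATP5, COX4, COX5, COX6, COX7 or COX8, and SDHA to SDHD, with pseudogenes left out. This gave 88 of 19775 genes, measured by 171 probe sets. Of these, 85 code for proteins and 3 are non-coding RNAs that share the prefix. The protein-coding members were 5 core subunits, 28 accessory subunits and 8 assembly factors of complex I, 3 subunits of complex II, 6 of complex III, 17 of complex IV and 18 genes of complex V. A further 14 probe sets carry several symbols, with a listed prefix among them, and were not used for the members. They include those for NDUFS5, NDUFS8, NDUFC2 and UQCRH, subunits that are not among the 88 genes. Some other subunits, among them SDHB and UQCRFS1, were not analysed here either.

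The samples were 3 induced and 3 uninduced samples of U937T:PLZF-RARa, an engineered form of the monocyte-like human line U937 in which removing tetracycline switches PLZF-RARA on. Induced cells had been grown without tetracycline for 48 h, uninduced cells with it, and both groups were kept in puromycin and G418. PLZF-RARA fuses the transcriptional repressor PLZF (ZBTB16) with RARA, a retinoic acid receptor, and is produced by a rare translocation of acute promyelocytic leukaemia. Each sample was hybridised to its own Affymetrix HG-U133 Plus 2.0 array. All samples come from a single engineered line, and cells without the transgene were not analysed here. Loss of tetracycline and gain of the fusion coincide in these samples, so their effects cannot be told apart.

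The respiratory chain passes electrons from NADH (complex I) and succinate (complex II) through coenzyme Q, complex III and cytochrome c to oxygen at complex IV. Complexes I, III and IV pump protons across the inner mitochondrial membrane, and complex V, the ATP synthase, uses the returning protons to make ATP. A few subunits are encoded in mitochondrial DNA and the others in the nucleus, and complexes are built with the help of assembly factors that are absent from the finished enzyme.

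All values below are log2 intensities, and differences are induced minus uninduced on that scale. No label says that replicates came from separate cultures, so the spread behind the p-values may be technical, and precision is limited by the 3 arrays a group. A probe set was tested where it lay above 4 on at least 3 of the 6 arrays, and was called where the limma p-value, adjusted over all 20552 tested probe sets, was under 0.05. Of 5 RARA probe sets 1 rose, with 7.58 ± 0.17 in induced and 1.87 ± 0.10 in uninduced samples (SD, n = 3 each), and 1 fell, with 3.99 ± 0.04 in induced and 5.16 ± 0.08 in uninduced samples. The other 3 were not called or lay below the filter, and which of them bind the fusion transcript was not analysed here. Arrays of a group correlated at r = 0.996 to 0.998. Uninduced replicate 3 was dimmer than the rest: the median of its tested probe sets was 8.21, against 8.37 to 8.44 on the other 5 arrays. As a sign of RNA integrity, the 3' end of GAPDH exceeded its 5' end by 0.58 ± 0.03 in induced and by 0.50 ± 0.03 in uninduced samples. The exact permutation p was 0.1, the smallest that 3 against 3 allows. For ACTB the excess was 1.41 ± 0.10 in induced and 1.25 ± 0.08 in uninduced samples (exact permutation p = 0.2). The part of RNA integrity in the results was not tested. Of 12 myelomonocytic markers 9 lay above the filter, with MPO, CD14 and CSF1R below it, and no marker of T cells, B cells, erythroid cells or megakaryocytes lay above it. Of 4 epithelial markers KRT8 did, at 5.67 in both groups. Of 3 fibroblast markers COL1A1 did, at 7.71 in induced and 8.26 in uninduced samples, and the summed intensity of the fibroblast list was 221 to 244 in induced and 317 to 340 in uninduced samples. The other markers of both lists lay below the filter, with COL1A2 and DCN at 3.16 to 3.38, so that sum is mostly COL1A1. Whether the KRT8 and COL1A1 signals come from other cells was not tested, nor was their part in the results. In RNA from whole cultures, fewer cells of a type and less RNA per cell cannot be told apart.

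Most respiratory chain transcripts moved little, and in both directions. Of the 85 protein-coding members 79 were tested: 26 fell, 16 rose and 37 were not called. That is 32.9% lower, against 30.7% of all tested genes, and 20.3% higher, against 35.8% of all tested genes. The median member changed by -0.01 (range -1.65 to 0.69), and the median tested gene by 0.02. The groups did not overlap for 51 members, while they did not overlap for 74.4% of all tested genes. Only 4 members fell at least 2-fold, namely NDUFAF2, NDUFAF4, NDUFAF6 and ATP5MC1, and none of the 79 rose that far under this fit. Among all tested genes 8.83% fell and 10.8% rose at least 2-fold. The direction counts depended on scaling, as did those of all tested genes. With the arrays centred on their medians 30 members were lower and 9 higher, against 36.9% and 33.1% of all tested genes. Without the dim uninduced replicate 3 the counts were 28 lower and 11 higher, against 33.2% and 33.3% of all tested genes. Without induced replicate 2 they were 25 lower and 8 higher, against 28.9% and 32.7%.

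**Figure D1:**
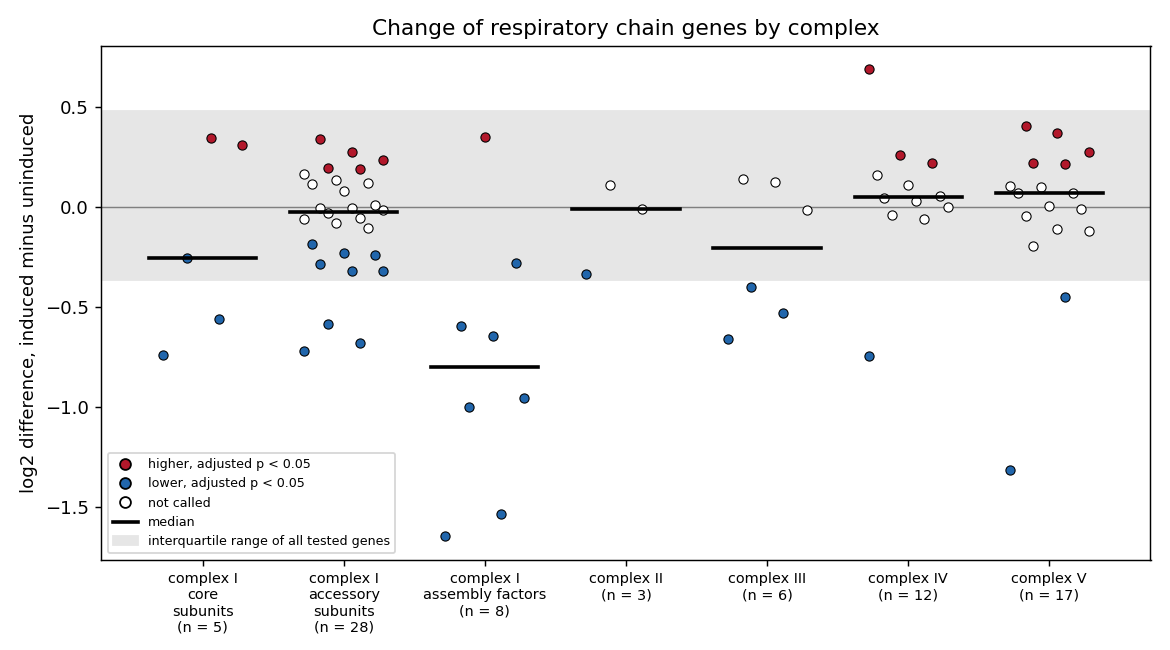
Log2 difference, induced minus uninduced, for each tested member, by group of members. Filled points passed the test (higher or lower), open points did not, bars are medians and the grey band is the interquartile range of all tested genes. Complex I assembly factors spread from -1.65 to 0.35 with 7 of 8 called lower, whereas the medians of the subunit groups lie between -0.26 and 0.07.

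Differences were set out by class. The 8 complex I assembly factors had a median change of -0.80, with 7 lower and 1 higher. The 5 core subunits had a median of -0.26 (3 lower, 2 higher) and the 28 accessory subunits -0.02 (9 lower, 5 higher). Complex II had a median of -0.01 (1 lower of 3), and complex III of -0.21 (3 lower of 6, none higher in this fit). The medians of complex IV (0.05, with 1 lower and 3 higher of 12) and complex V (0.07, with 2 lower and 5 higher of 17) turned to -0.03 and -0.01 when arrays were centred on their medians. Without the assembly factors 71 members were left, of which 19 fell (26.8%) and 15 rose (21.1%). Of all tested genes 30.7% fell and 35.8% rose. The share of accessory subunits that fell, 32.1%, was thus near that of all tested genes.

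Probe set brightness ran alongside these counts. Of the 79 tested members 55 had a mean above 12, a level reached by 1160 of the 9834 tested genes. Among those 55 members 11 fell, 12 rose and none changed 2-fold, whereas 30.6% of all genes at that level fell, 32.2% rose and 3.02% fell at least 2-fold. Of the 24 tested members at or below 12, 15 fell and 4 rose, against 30.7% lower among all genes in that range. These 24 were 7 assembly factors, with 6 lower, and 17 subunits, with 9 lower and 3 higher. The part of brightness in the difference between subunits and assembly factors was not tested.

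Nuclear genes of the chain are known to share promoter motifs bound by NRF1, by the ETS factor GABP and by YY1. Promoters of 73 of the 85 members were found in RefSeq (GRCh38.p14, 250 bases before to 50 after the first listed start). The motifs searched on both strands were GCGCANGCGC for NRF1, CCGGAAG for ETS factors, AAGATGG for YY1, the CCAAT box and the E-box CACGTG, the last added after the data were seen. Matches of different motifs overlapped in 0 member promoters. The NRF1 motif lay in 23.3% of member promoters, against 13.1% for tested genes and 6.28% for all 27305 promoters of that length. The ETS motif lay in 26%, against 21.5% and 10.7%, and the YY1 motif in 20.5%, against 8.70% and 6.06%. The CCAAT box (35.6%, against 37.5% and 35.7%) and the E-box (11%, against 10.9% and 7.43%) were at the levels of other promoters. By direction, the NRF1 motif was in 6 of 23 promoters of members that fell, 2 of 15 of those that rose and 9 of 32 of those not called. The ETS motif was in 4 of 23, 6 of 15 and 9 of 32, and the E-box in 4 of 23, 0 of 15 and 4 of 32. These counts describe letters in a window and were not tested.

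Promoters are shown for 5 members, chosen by their change or by their matches. NDUFAF2 and NDUFAF4 had the widest falls of all members, ATP5MC1 fell while ATP5MC2, a gene for the same protein subunit, was not called, and UQCR11 fell with several motifs before its start. UQCR11 does not stand for the members that fell, as others, among them COX5A, NDUFAF8 and NDUFV1, fell with no match of any motif. Each run covers 220 bases before and 30 after the start of the gene, 5′ to 3′ on the gene's strand, with motif matches in capitals. NDUFAF2 (chr5:60944985-60945234, plus strand) has 2 CCAAT boxes, and NDUFAF4 (chr6:96897862-96898111, minus strand) has 1 ETS motif.
NDUFAF2: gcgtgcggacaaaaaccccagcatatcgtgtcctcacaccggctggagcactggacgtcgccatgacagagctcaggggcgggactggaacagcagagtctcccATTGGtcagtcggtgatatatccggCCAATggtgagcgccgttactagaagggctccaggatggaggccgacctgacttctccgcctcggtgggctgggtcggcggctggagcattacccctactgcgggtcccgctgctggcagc
NDUFAF4: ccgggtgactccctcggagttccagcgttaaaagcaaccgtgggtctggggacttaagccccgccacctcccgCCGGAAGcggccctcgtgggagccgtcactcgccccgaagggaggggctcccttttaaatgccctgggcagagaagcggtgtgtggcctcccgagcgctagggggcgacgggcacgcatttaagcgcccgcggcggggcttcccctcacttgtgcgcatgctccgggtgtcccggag
ATP5MC1 (chr17:48892567-48892816, plus strand) has 4 CCAAT boxes and, from base 5 to base 10 of the transcript, an E-box. ATP5MC2 (chr12:53676054-53676303, minus strand) has no match in this window, and it has other listed starts that are not shown.
ATP5MC1: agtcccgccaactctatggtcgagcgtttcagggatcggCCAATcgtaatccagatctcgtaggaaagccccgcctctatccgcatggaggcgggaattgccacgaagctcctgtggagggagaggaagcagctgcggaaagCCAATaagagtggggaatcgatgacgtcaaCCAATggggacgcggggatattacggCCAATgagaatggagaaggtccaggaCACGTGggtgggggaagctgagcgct
ATP5MC2: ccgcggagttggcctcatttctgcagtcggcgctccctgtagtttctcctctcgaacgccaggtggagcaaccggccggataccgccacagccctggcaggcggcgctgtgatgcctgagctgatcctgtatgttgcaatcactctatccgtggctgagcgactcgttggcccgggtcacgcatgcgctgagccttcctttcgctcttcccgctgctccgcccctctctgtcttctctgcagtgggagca
UQCR11 (chr19:1605433-1605682, minus strand) has 2 NRF1 matches, at bases -29 to -20 and -10 to -1 counted back from the start, 2 ETS motifs and an E-box.
UQCR11: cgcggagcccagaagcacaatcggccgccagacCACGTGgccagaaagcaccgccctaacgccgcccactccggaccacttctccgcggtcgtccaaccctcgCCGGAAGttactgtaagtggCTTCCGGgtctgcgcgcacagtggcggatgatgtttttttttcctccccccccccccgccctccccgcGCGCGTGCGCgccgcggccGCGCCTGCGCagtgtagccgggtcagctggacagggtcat

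The complex I assembly factors fell together, with 1 exception. NDUFAF2, a chaperone that binds a late assembly intermediate, measured 10.16, 10.14 and 10.17 in induced samples and 11.84, 11.81 and 11.77 in uninduced samples. Every induced array lay below every uninduced array, and the difference was -1.65, or 3.13-fold lower (limma adjusted p = 1.58e-06). NDUFAF4, which acts with NDUFAF3 on the quinone-binding module, measured 10.77, 10.77 and 10.82 in induced and 12.31, 12.40 and 12.26 in uninduced samples. It was 2.90-fold lower (limma adjusted p = 2.92e-06), and its second probe set differed by -1.69. Its known partner in assembly, NDUFAF3, moved the other way: it measured 10.51, 10.76 and 10.61 in induced samples and 10.32, 10.33 and 10.19 in uninduced samples. NDUFAF3 was 1.27-fold higher (limma adjusted p = 0.0101) and was the sole assembly factor among the 8 that rose.

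NDUFAF6, needed early in assembly, averaged 9.83 ± 0.06 in induced and 10.83 ± 0.08 in uninduced samples (SD, n = 3 each), 2.004-fold lower (limma adjusted p = 2.36e-05). Its second probe set, close to the filter, differed by -0.61, and the average of both by -0.80, which is under 2-fold. NDUFAF8, which stabilises NDUFAF5, averaged 12.36 ± 0.13 in induced and 13.31 ± 0.16 in uninduced samples, 1.94-fold lower (limma adjusted p = 2.17e-04). NDUFAF5 itself, which hydroxylates the core subunit NDUFS7, measured 8.15, 8.06 and 7.71 in induced samples and 8.70, 8.69 and 8.32 in uninduced samples. It fell by 0.59 on the log2 scale (limma adjusted p = 0.0118), with the highest induced array below the lowest uninduced one. NDUFAF7, a methyltransferase, fell by 0.65 on the log2 scale (limma adjusted p = 0.00299), and its 2 other tested probe sets differed by -0.97 and -1.08. NDUFAF1, a member of the membrane-arm assembly complex, differed by -0.28 (limma adjusted p = 0.0179). Over the alternatives the adjusted p of NDUFAF1 ranged from 0.0011 to 0.0671 and that of NDUFAF5 from 9.31e-04 to 0.0595, and each lost its call under at least 1 of them.

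**Figure D2:**
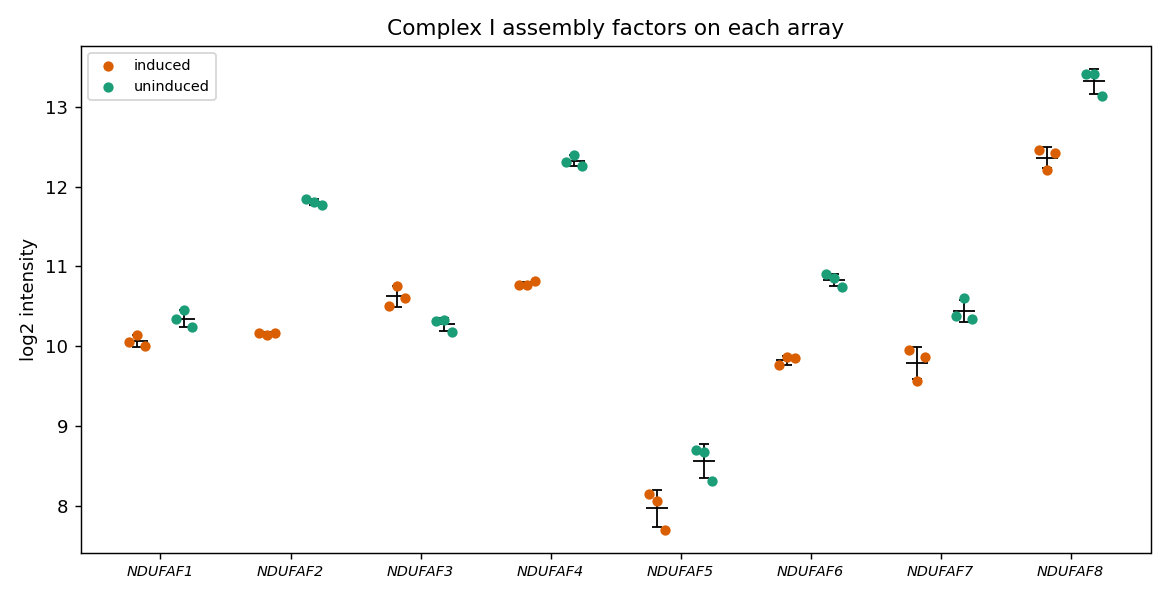
Log2 intensity of the 8 complex I assembly factors on each array, induced samples left and uninduced samples right for each gene, with bars for mean ± SD (n = 3). For all 8 the groups do not overlap, as for 74.4% of all tested genes, and NDUFAF3 alone lies higher in induced samples.

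Of the core subunits, which carry the flavin, the iron-sulfur clusters and the quinone site, 3 fell and 2 rose. NDUFS7, which holds the iron-sulfur cluster next to the quinone, measured 11.02, 11.14 and 11.01 in induced samples and 11.94, 11.84 and 11.63 in uninduced samples. The groups were apart and the fall was 1.67-fold (limma adjusted p = 4.15e-04). NDUFV1 and NDUFV2 form the NADH-oxidising end of the enzyme and moved in opposite directions. NDUFV1 measured 11.11, 11.35 and 11.22 in induced and 11.94, 11.79 and 11.64 in uninduced samples, 1.48-fold lower (limma adjusted p = 0.00227). NDUFV2 measured 13.57, 13.71 and 13.62 in induced and 13.33, 13.31 and 13.21 in uninduced samples, 1.27-fold higher (limma adjusted p = 0.00375). NDUFS1, the largest subunit of that arm, rose by 0.31 (limma adjusted p = 0.0128), and 2 of the 5 probe sets tested for it were called higher and none lower. NDUFS3 differed by -0.26 (limma adjusted p = 0.0381), and it lost its call without induced replicate 1 or 3, without uninduced replicate 1 or 2, and with no filter (adjusted p over all alternatives 0.00324 to 0.113).

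Accessory subunits surround the core and stabilise it. The 3 with the widest falls were NDUFV3, a small subunit of the NADH-oxidising end, NDUFA10, which resembles a nucleoside kinase, and NDUFB10, of the membrane arm. NDUFV3 measured 10.35, 10.32 and 10.21 in induced and 11.02, 11.07 and 10.96 in uninduced samples, 1.65-fold lower (limma adjusted p = 9.29e-05). NDUFA10 was 1.60-fold lower (limma adjusted p = 3.61e-04) and NDUFB10 1.504-fold lower (limma adjusted p = 4.76e-04). The other 6 that fell, NDUFAB1 (the mitochondrial acyl carrier protein), NDUFA8, NDUFB9, NDUFA9, NDUFS6 and NDUFB6, differed by -0.32 to -0.18, and the 2 groups overlapped for NDUFA8. NDUFAB1 and NDUFB9 were called in all settings run. NDUFA8 and NDUFA9 were called in 12 of 17, NDUFS6 in 13 of 17 and NDUFB6 in 11 of 16, with adjusted p of up to 0.132. The widest rises were NDUFA13, also known as GRIM-19, and NDUFB11, at 0.34 and 0.28 (limma adjusted p = 0.0188 and 0.0206). Both lost their calls without induced replicate 2, NDUFA13 also with no filter, and NDUFB11 also without uninduced replicate 2. NDUFA1, NDUFA6 and NDUFB5 rose by 0.23, 0.20 and 0.19, but were called in only 12, 8 and 8 of the 17 settings run (adjusted p up to 0.0833, 0.789 and 0.167). The other 14 accessory subunits, NDUFB3, NDUFA2, NDUFA5, NDUFA11, NDUFB2, NDUFA3, NDUFA12, NDUFB8, NDUFB7, NDUFA7, NDUFC1, NDUFB4, NDUFB1 and NDUFS4, differed by -0.11 to 0.16 and were not called.

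Of the non-coding RNAs under the same prefixes, NDUFV2-AS1 measured 4.69, 4.81 and 4.90 in induced and 4.50, 4.24 and 4.68 in uninduced samples, a difference of 0.33 near the threshold (limma adjusted p = 0.0496). NDUFB2-AS1 and NDUFV1-DT lay below the filter on all arrays.

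Complex II oxidises succinate and is also an enzyme of the citric acid cycle. SDHD, a membrane anchor, measured 13.32, 13.32 and 13.45 in induced and 13.74, 13.69 and 13.68 in uninduced samples, 1.26-fold lower (limma adjusted p = 0.00305). SDHC, the other anchor, measured 12.51, 12.41 and 12.45 in induced and 12.38, 12.39 and 12.26 in uninduced samples. The groups did not overlap, but SDHC was not called: the difference of 0.11 had a 95% interval of -0.05 to 0.27 (limma adjusted p = 0.183), and 1 dim probe set of the 6 tested was called higher. SDHA, the flavoprotein, measured 10.37, 10.52 and 10.23 in induced and 10.43, 10.45 and 10.27 in uninduced samples, and the groups overlapped. Its difference was -0.01, with a 95% interval of -0.24 to 0.21 (limma adjusted p = 0.918).

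In complex III the 3 members that fell were the core proteins UQCRC1 and UQCRC2, which face the matrix, and the small subunit UQCR11. UQCRC1 measured 11.76, 12.04 and 11.84 in induced and 12.68, 12.56 and 12.40 in uninduced samples, 1.58-fold lower (limma adjusted p = 0.00116). UQCR11 measured 12.46, 12.53 and 12.52 in induced and 13.12, 13.02 and 12.98 in uninduced samples, 1.45-fold lower (limma adjusted p = 3.65e-04), and its dimmer probe set differed by -1.38. UQCRC2 was 1.32-fold lower (limma adjusted p = 0.00135), and its second bright probe set was also called lower, at -0.51. The call was lost when the 3 probe sets of UQCRC2 were averaged (-0.13, limma adjusted p = 0.332). The third, a dim probe set near the filter, differed by 0.51 and was not called. UQCRQ, UQCRB and UQCR10 differed by -0.01, 0.12 and 0.14 and were not called.

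In complex IV 1 of 12 tested members fell and 3 rose. COX5A, a nuclear subunit on the matrix side, measured 13.67, 13.65 and 13.74 in induced samples and 14.44, 14.48 and 14.38 in uninduced samples. It was the sole complex IV member to fall in this fit, 1.68-fold (limma adjusted p = 5.45e-05), with a second probe set at -1.43. COX5B, a different protein despite the name, measured 13.62, 13.77 and 13.67 in induced and 13.73, 13.72 and 13.54 in uninduced samples and was not called (0.03, limma adjusted p = 0.793). COX7A2, the general form of subunit VIIa, rose by 0.26 (limma adjusted p = 0.0115), though not with median centring. COX8A, the general form of subunit VIII, rose by 0.22 (limma adjusted p = 0.0239) and lost its call with median centring and without induced replicate 2 or 3 or uninduced replicate 2 (adjusted p over all alternatives 0.00771 to 0.0726).

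Several complex IV subunits exist in a general and a tissue-specific form. The forms COX4I2, COX6A2 (heart and muscle), COX6B2 (testis), COX7A1 (heart and muscle) and COX7B2 lay below the filter, at means of 2.05 to 3.10 in both groups. Their general counterparts COX4I1, COX6A1, COX6B1 and COX7B were tested and not called, with means of 12.50 to 14.52 in induced and 12.53 to 14.41 in uninduced samples and differences of -0.06 to 0.16. COX8C, known as a testis form of subunit VIII, was the exception: its single probe set measured 11.38, 11.28 and 11.40 in induced and 10.73, 10.71 and 10.56 in uninduced samples. It was 1.61-fold higher (limma adjusted p = 1.77e-04), and which transcript that probe set binds was not checked. COX7A2L, which helps join complexes III and IV, differed by -0.0012 with a 95% interval of -0.21 to 0.21 (limma adjusted p = 0.992). COX6C and COX7C differed by 0.05 each and were not called. The subunit formerly named NDUFA4, now COXFA4 and so outside the naming rule, averaged 14.12 in induced and 14.15 in uninduced samples (limma adjusted p = 0.813).

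In complex V, 1 of 3 genes for the same protein was called. ATP5MC1, ATP5MC2 and ATP5MC3 are separate genes for the same mature subunit c, the protein of the rotating ring. ATP5MC1 measured 10.06, 10.19 and 10.09 in induced and 11.48, 11.44 and 11.38 in uninduced samples, with the groups far apart. It was 2.49-fold lower (limma adjusted p = 6.09e-06). ATP5MC2 measured 14.44, 14.51 and 14.48 in induced and 14.47, 14.46 and 14.30 in uninduced samples, and ATP5MC3 14.77, 14.77 and 14.75 in induced and 14.94, 14.96 and 14.73 in uninduced samples. Both overlapped between groups and were not called (differences of 0.07 and -0.11, limma adjusted p = 0.411 and 0.247), although a dimmer probe set of ATP5MC3 was called lower, at -0.62. Levels of different probe sets are not compared here, so the share of subunit c transcripts from each gene is unknown.

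ATP5F1D, the delta subunit of the central stalk, averaged 12.01 ± 0.05 in induced and 12.47 ± 0.11 in uninduced samples (SD, n = 3 each), 1.37-fold lower (limma adjusted p = 0.0018). Of the 5 complex V genes that rose, ATP5IF1, the inhibitor that blocks ATP hydrolysis by the enzyme, measured 14.26, 14.33 and 14.31 in induced and 13.88, 13.91 and 13.90 in uninduced samples. It was 1.32-fold higher (limma adjusted p = 6.61e-04), and its 3 tested probe sets were all called higher. ATP5MG, a membrane subunit, rose by 0.37 (limma adjusted p = 0.00374), and its 4 tested probe sets were all called higher. ATP5F1E and ATP5F1C, of the central stalk, and ATP5PD, of the peripheral stalk, rose by 0.27, 0.22 and 0.21. ATP5F1E was called in all 17 settings run, ATP5F1C in 11 of 16 (adjusted p up to 0.0871) and ATP5PD in 7 of 16 (up to 0.134). ATP5F1A and ATP5F1B, the alpha and beta subunits of the catalytic head, differed by -0.12 and 0.10, and ATP5PB, of the peripheral stalk, by -0.20 (limma adjusted p = 0.0572); none of the 3 was called. ATP5ME, ATP5PF, ATP5MJ, ATP5PO and ATP5MK differed by -0.05 to 0.10 and were not called, and the single ATP5MF probe set that names no other gene lay below the filter. A probe set shared by ATP5MF and ARMC2-AS1 averaged 13.45 in both groups and was not called, so ATP5MF cannot be taken as undetected.

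A factor shared by all probe sets of an array cancels in a ratio of 2 genes on that array. For this reason 4 pairs, chosen after their values were seen, were compared as log2 ratios within arrays. Scaling that varies with brightness does not cancel, and the ATP5MC1 probe set was dimmer than those of ATP5MC2 and ATP5MC3. The ratio of ATP5MC1 to ATP5MC2 shifted by -1.39 and that to ATP5MC3 by -1.20. The ratio of NDUFV1 to NDUFV2 shifted by -0.91 and that of COX5A to COX5B by -0.77. In each pair the groups did not overlap (two-sided exact permutation p = 0.1, the smallest possible for 3 against 3, and 0.1 after Benjamini-Hochberg adjustment over the 4 pairs). The sizes of these shifts are a description, as the pairs were picked for them.

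**Figure D3:**
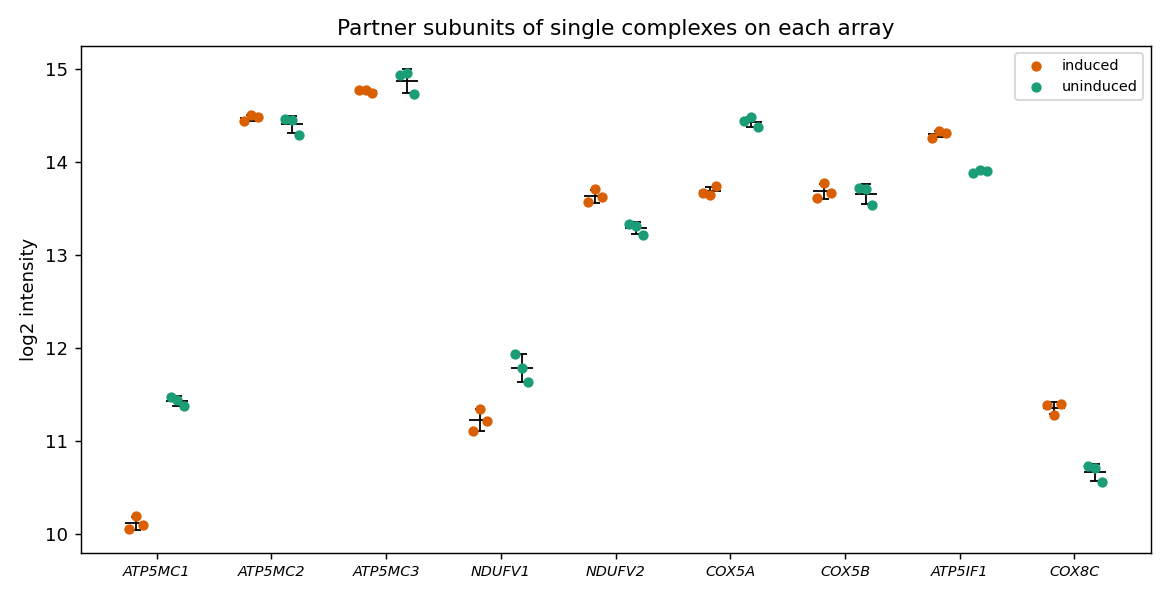
Log2 intensity on each array of the compared pairs and of ATP5IF1 and COX8C, induced samples left and uninduced samples right for each gene, with bars for mean ± SD (n = 3). ATP5MC1 lies near 10.1 in induced and 11.4 in uninduced samples while ATP5MC2 and ATP5MC3 overlap between groups, and NDUFV1 and NDUFV2 separate in opposite directions.

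A gene was represented by its brightest probe set, and 33 members had more than 1 tested probe set. For 18 of these all tested probe sets shared a call, and for 0 were probe sets called in opposite directions. For 10 members the brightest probe set was not called while another was: ATP5MC3, ATP5MJ, COX4I1, COX7B, NDUFA7, NDUFB8, NDUFC1, SDHC, UQCR10 and UQCRB. COX4I1 had a dim probe set at -0.66 beside 2 bright ones at -0.06 and -0.04, and NDUFC1 a dim one at 0.85 beside a bright one at 0.12. Which transcripts the dim probe sets bind was not analysed here.

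**Figure D4:**
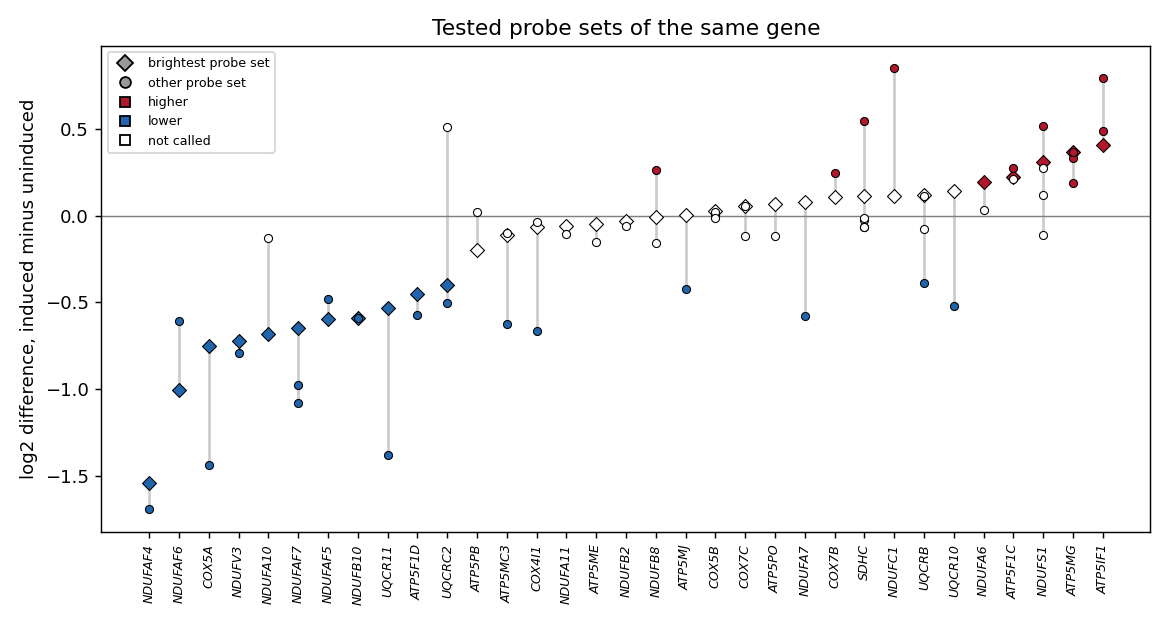
Log2 difference, induced minus uninduced, of every tested probe set of members with more than 1. Diamonds are the brightest probe set of a gene, circles the others, and filled symbols passed the test. Of 33 members 18 have a single call over all their probe sets, and none is called both ways.

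The 10 complex I assembly factors without an NDUF name also fell: 9 of 10 were called lower and none higher, with a median of -0.49. NUBPL, which delivers iron-sulfur clusters to complex I, measured 7.37, 7.30 and 7.36 in induced and 8.96, 8.85 and 8.74 in uninduced samples, 2.85-fold lower (limma adjusted p = 5.72e-06). TMEM186 and TIMMDC1, both of the membrane-arm assembly machinery, were 2.50-fold and 1.70-fold lower. Of 34 tested assembly factors of complexes II to V 23 fell and 3 rose, with a median of -0.37. SCO1, a copper chaperone of complex IV, measured 7.48, 7.61 and 7.48 in induced and 9.25, 9.30 and 9.15 in uninduced samples, 3.27-fold lower (limma adjusted p = 3.20e-06). BCS1L, which inserts the iron-sulfur protein into complex III, was 3.95-fold lower (limma adjusted p = 3.28e-06) and COA4, a complex IV factor, 1.98-fold lower. The gene COA1 is in both lists.

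Among cytochrome c, CYC1 and the enzymes of coenzyme Q synthesis, 9 of 14 tested genes fell and 1 rose, with a median of -0.40. COQ8A, an atypical kinase of the coenzyme Q pathway, measured 8.03, 7.88 and 8.26 in induced and 9.99, 10.28 and 9.97 in uninduced samples, 4.05-fold lower (limma adjusted p = 1.59e-05). PDSS1, which makes the isoprenoid tail, was 2.42-fold lower (limma adjusted p = 9.69e-06), but its direction turned, to 0.45, when probe sets that can bind several transcripts were left out. COQ10B, a coenzyme Q binding protein, was 2.48-fold higher (limma adjusted p = 2.37e-05). CYC1, a complex III subunit outside the naming rule, and CYCS, which is cytochrome c, were chosen after their values were seen. They fell by 0.54 and 0.23 on the log2 scale.

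Of the 13 genes encoded in mitochondrial DNA 7 were tested, and 1 was called: ND6, a complex I subunit and the one on the opposite strand to the others, differed by -0.27 (limma adjusted p = 0.047). Its groups overlapped, and the call was lost in 8 of 16 alternatives, among them no filter (adjusted p = 0.131) and leaving out any of 5 of the 6 arrays (adjusted p over all alternatives 0.0108 to 0.141). COX3 and ND2 differed by -0.13 and -0.10 and were not called, and the median of the 7 was -0.06. Among regulators of mitochondrial biogenesis 10 of 15 tested genes fell and 2 rose, with a median of -0.70. POLRMT, the mitochondrial RNA polymerase, measured 6.94, 7.40 and 7.01 in induced and 9.29, 9.20 and 9.09 in uninduced samples, 4.22-fold lower (limma adjusted p = 1.51e-05). The coactivator PPRC1 was 4.12-fold lower (limma adjusted p = 3.43e-06) and TFB2M, which works with POLRMT, 2.63-fold lower (limma adjusted p = 7.22e-06). The 2 that rose were GABPA and GABPB1, the subunits of GABP, at 0.31 and 0.34 (limma adjusted p = 0.00515 and 0.00698). NRF1 differed by 0.25 and was not called (limma adjusted p = 0.0542), and PPARGC1A lay below the filter.

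Of 21 tested genes of the citric acid cycle and pyruvate dehydrogenase 10 fell and 6 rose, with a median of -0.22. The pyruvate dehydrogenase kinase PDK1 was 1.82-fold lower (limma adjusted p = 2.33e-05) and the phosphatase PDP1, which reverses it, 2.48-fold higher (limma adjusted p = 2.33e-05). DLAT, the acetyltransferase subunit, was 1.96-fold lower (limma adjusted p = 3.30e-05). The counts of these lists stand beside the same 30.7% lower and 35.8% higher among all tested genes. Differences between the lists and the subunits were not tested.

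**Figure D5:**
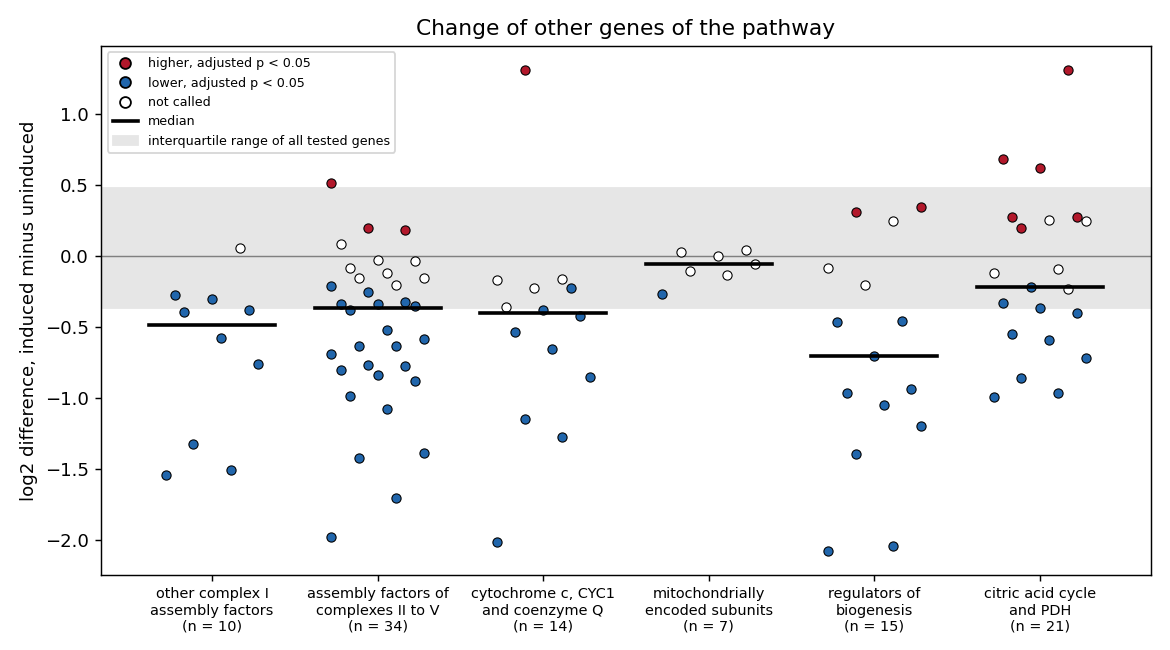
Log2 difference, induced minus uninduced, of each tested gene in the lists of related mitochondrial genes. Filled points passed the test, bars are medians and the grey band is the interquartile range of all tested genes. The medians run from -0.70 for regulators of mitochondrial biogenesis to -0.06 for mitochondrially encoded subunits.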

How the data were processed

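Total RNA from 6 samples of U937T:PLZF-RARa was measured on Affymetrix arrays and grouped by sample title, 3 induced and 3 uninduced. The authors' deposited table holds linear intensities, 1 per probe set and array, and the submitters' processing notes name GCRMA, which uses probe sequence to correct background and compresses dim values. The sources used here do not give the GCRMA version.

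The log2 of each intensity was taken after raising 6 values under 1 to 1. The 62 control probe sets were left out, and genes were named from GEO's platform annotation where it gave 1 symbol. Probe sets above 4 on at least 3 arrays (20552 of 54675) were fitted by group alone in R 4.3.3 with lmFit and eBayes of limma 3.58.1, and p-values were adjusted over all of them by Benjamini-Hochberg. A gene was represented by its probe set with the highest mean, as the member rule states, which gave 9834 tested genes. Tests of single values were two-sided exact permutation tests. On simulated data with the spread of these 20552 probe sets the fit recovered 0%, 64%, 94% and 100% of 50 changes each of 0.25, 0.5, 1 and 2, with 9 wrong calls among 138.

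Members and gene lists were chosen with earlier results of these data known. Genes named with values are, per class, up to 3 falls and 2 rises among called members whose groups did not overlap, the complex II genes, isoform genes, and per list the 3 with the smallest adjusted p; others are said to have been chosen afterwards or close the account of a class. Promoters come from RefSeq. The labels do not say whether samples with the same replicate number were handled as pairs. Deviations of same-numbered arrays correlated at -0.17, 0 and 0.18. With 3 arrays a group this cannot show that pairing was absent. Figures were drawn with matplotlib.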

Additional observations from a re-analysis of the deposited data

How the results depend on the processing

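No member turned direction between calls in any of 16 alternatives. Without the probe sets marked _x_at or _s_at 52 members were tested in both fits, and 16 of 16 falls and 10 of 11 rises were kept. In each of the other 15 alternatives 20 to 26 of the 26 falls and 8 to 16 of the 16 rises were kept. Median centring, which moved the median of all genes from 0.02 to -0.06, gave 9 members higher, against 33.1% of all tested genes. It put the medians of complexes I to V at -0.16, -0.092, -0.29, -0.030 and -0.013, with 5 higher in complex I, 1 higher in complex IV, and 5 lower and 3 higher in complex V. Quantile normalization gave 1 higher in complex III and 5 in complex IV. Array weights gave a complex II median of -0.12 and 5 lower in complex V. Averaging a gene's probe sets gave 2 lower in complex IV and, in complex V, 4 lower and a median of -0.013. Leaving out those marked _x_at or _s_at tested fewer probe sets (4365 higher, 3172 lower over all) and members (10 higher, against 36.3% of tested genes). It gave 11 lower and 5 higher in complex I, medians of -0.18 and -0.51 in complexes II and III, 5 lower in complex III, 2 lower in complex IV, 1 lower and 3 higher in complex V, and 3 lower among the assembly factors left, with a median of -0.64. It also put PDSS1 at 0.45. The cause of each shift was otherwise not tested.

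Leaving out each array in turn gave 20 to 28 members lower and 8 to 13 higher, against 26.6% to 33.2% and 32.7% to 34% of all tested genes. Over all probe sets it gave 4914 to 6312 lower and 6455 to 6758 higher. Complex medians ranged from -0.13 to -0.05 (I), -0.09 to 0.06 (II), -0.25 to -0.18 (III), 0.02 to 0.07 (IV) and -0.0017 to 0.10 (V), and that of the assembly factors from -0.88 to -0.74, with 6 to 7 lower. Complex I had 13 to 19 lower and 3 to 7 higher, complex III 3 lower, complex IV 1 lower and 2 to 3 higher, and complex V 2 to 4 lower and 3 to 4 higher. With the replicate number as a block, 25 members were lower and 13 higher, against 30.1% and 35.2% of all tested genes. Of the 6 samples 2 correlated best with their own number. In the simulation, which changed far fewer probe sets than are called here, 0% of changes of 0.25 were recovered; called changes of that size or less were often lost under an alternative.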
